A study of Mus musculus with 2 samples.

Results

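Amino acid transporter genes were read on 1 Affymetrix array of mouse bone marrow cells that had been grown with ID8 tumour cells. The members are the genes whose symbol begins with Slc1a, Slc3a, Slc6a, Slc7a, Slc36a, Slc38a or Slc43a, read on probe sets that the platform annotation gives to that gene alone. Slc7a2 was left out by the same rule. This gave 62 of 18193 named genes, on 121 of 34945 probe sets with 1 gene symbol. Of the 62 symbols, 59 name transporters or their subunits, and 3 (Slc36a1os, Slc6a19os and Slc7a6os) name genes that lie opposite or next to one of them and only share its prefix.

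The series holds 2 samples with 1 array each, both from C57BL/6 femur marrow grown in RPMI-1640 with 5% serum, and both labelled CD11b+Gr1+. In the first, named ID8 supernatant-induced MDSC (myeloid-derived suppressor cells, which are immature and hold back T cells), the marrow cells lay below ID8 cells, a mouse ovarian tumour line, in a transwell plate for 4 days. The title speaks of supernatant and the protocol of co-culture, and the cells are a mixed marrow culture, for which the labels mention no sort. The second, the bone marrow control, is not used for any gene. Its values stood along the probe sets as 2 descending sequences that alternate, with 0 rises from row to row among values at or above 91.67, the column's last value, and 0 among those below it, against 10622 and 11804 in the ID8-induced column split likewise at 95.69, its last value. No fold change, error or test is therefore given, and the values below do not show that the tumour cells raised or lowered any gene.

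Cells import amino acids through carriers that differ in what they take and in what drives them. Slc1 and Slc6 carriers and the Slc38 carriers at the cell surface mostly use the sodium gradient, Slc36 carriers use protons, and most Slc7 carriers exchange one amino acid for another. Many Slc7 proteins are light chains that reach the surface only when bound to a heavy chain of the Slc3 family, most often Slc3a2, also called CD98 or 4F2hc. In myeloid cells these carriers supply arginine for arginase and nitric oxide synthase, cystine for glutathione and glutamine as fuel. When amino acids run short, the kinase Gcn2 (gene Eif2ak4) raises the factor ATF4, which binds amino acid response elements in the promoters of several transporter genes. The Slc7a11 promoter is a textbook case.

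Promoter sequence from RefSeq (GRCm38.p6) was available for 46 of the 62 genes, in 67 windows from 250 bases before to 50 bases after a start site. The core of the amino acid response element was searched as TGATGNAA and that of the antioxidant response element, bound by the oxidant sensor NRF2 (gene Nfe2l2), as TGACNNNGC, each on both strands. The sequences that follow are the 250 bases before the start site of 3 genes with strong signals on this array, Slc7a11 at chr3:50443614-50443863, Slc3a2 at chr19:8713898-8714147 and Slc38a2 at chr15:96699729-96699978, all on the minus strand and written 5′ to 3′. Capitals mark matches to either core.
Slc7a11: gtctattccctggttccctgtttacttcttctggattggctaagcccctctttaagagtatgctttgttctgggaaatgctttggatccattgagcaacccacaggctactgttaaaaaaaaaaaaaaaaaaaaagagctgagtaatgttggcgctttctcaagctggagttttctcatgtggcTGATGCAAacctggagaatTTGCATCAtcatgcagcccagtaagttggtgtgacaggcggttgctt
Slc3a2: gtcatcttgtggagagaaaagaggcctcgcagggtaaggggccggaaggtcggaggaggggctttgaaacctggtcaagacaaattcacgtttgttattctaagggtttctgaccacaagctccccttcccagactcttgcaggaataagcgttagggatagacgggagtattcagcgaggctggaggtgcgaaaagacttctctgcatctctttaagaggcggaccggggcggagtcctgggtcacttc
Slc38a2: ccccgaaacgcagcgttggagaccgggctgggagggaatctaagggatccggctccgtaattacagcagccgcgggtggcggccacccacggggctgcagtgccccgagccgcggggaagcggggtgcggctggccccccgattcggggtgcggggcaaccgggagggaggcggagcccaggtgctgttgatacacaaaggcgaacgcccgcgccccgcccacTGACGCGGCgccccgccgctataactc

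The Slc7a11 window held the amino acid response core in both orientations, with first bases at -66 and -47 from the start site. The Slc38a2 window held 1 antioxidant core at -27, and these letters of either core were not in the Slc3a2 window. Among the 46 genes, 4 (8.70%) had an amino acid response core in a window, against 3.24% of 14452 genes on the array that have a promoter in the table. An antioxidant core was present for 10 of the 46 (21.7%), against 16.2%. A match is a run of letters and not a binding site, and these shares are descriptions. The other 3 genes with an amino acid response core were Slc7a7, Slc1a4 and Slc6a21. Their matches are shown with the bases around them, core in capitals, at chr14:54418062-54418101 and chr14:54417938-54417961 (minus strand) for Slc7a7, chr11:20332710-20332733 (minus strand) for Slc1a4 and chr7:45282829-45282868 (plus strand) for Slc6a21. The Slc7a7 match labelled as at the start lies at -1 from 1 start site of that gene and at -243 from another.
Slc7a7 upstream: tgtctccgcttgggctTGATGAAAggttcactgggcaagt
Slc7a7 at the start: tttgggacctagaagcTGATGCAA
Slc1a4: cagcgtgcctcctgcgTTGCATCA
Slc6a21: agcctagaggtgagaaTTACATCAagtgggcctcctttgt

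Signals are MAS5 values on a linear scale. A gene is given by its brightest probe set, with its percentile among all 45037 probe sets of the array. As no detection calls came with the values, a floor was set at a signal of 68.77, which is the 40th percentile. Passing it does not show that a gene was expressed, and since probe sets differ in how well they hybridise, signals place a gene on the array and do not rank transcripts. Of the 62 genes, 44 (71.0%) lay at or above the floor, and of all named genes 71.3% did. At or above the 90th percentile, a signal of 619.81, lay 5 of the 62 (8.06%), against 14.8% of all named genes and 29 of 285 other Slc genes (10.2%). Neither share is above the background. The 5 genes at the top were Slc6a6, Slc3a2, Slc7a11, Slc38a2 and Slc43a3. With the floor at the 20th percentile 55 of the 62 passed (all named genes, 87.5%), and with it at the 60th, 30 (51.6%). The median percentile of the 62 genes was 58.8, against 61.4 for all named genes and 61.3 for other Slc genes.

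**Figure D1:**
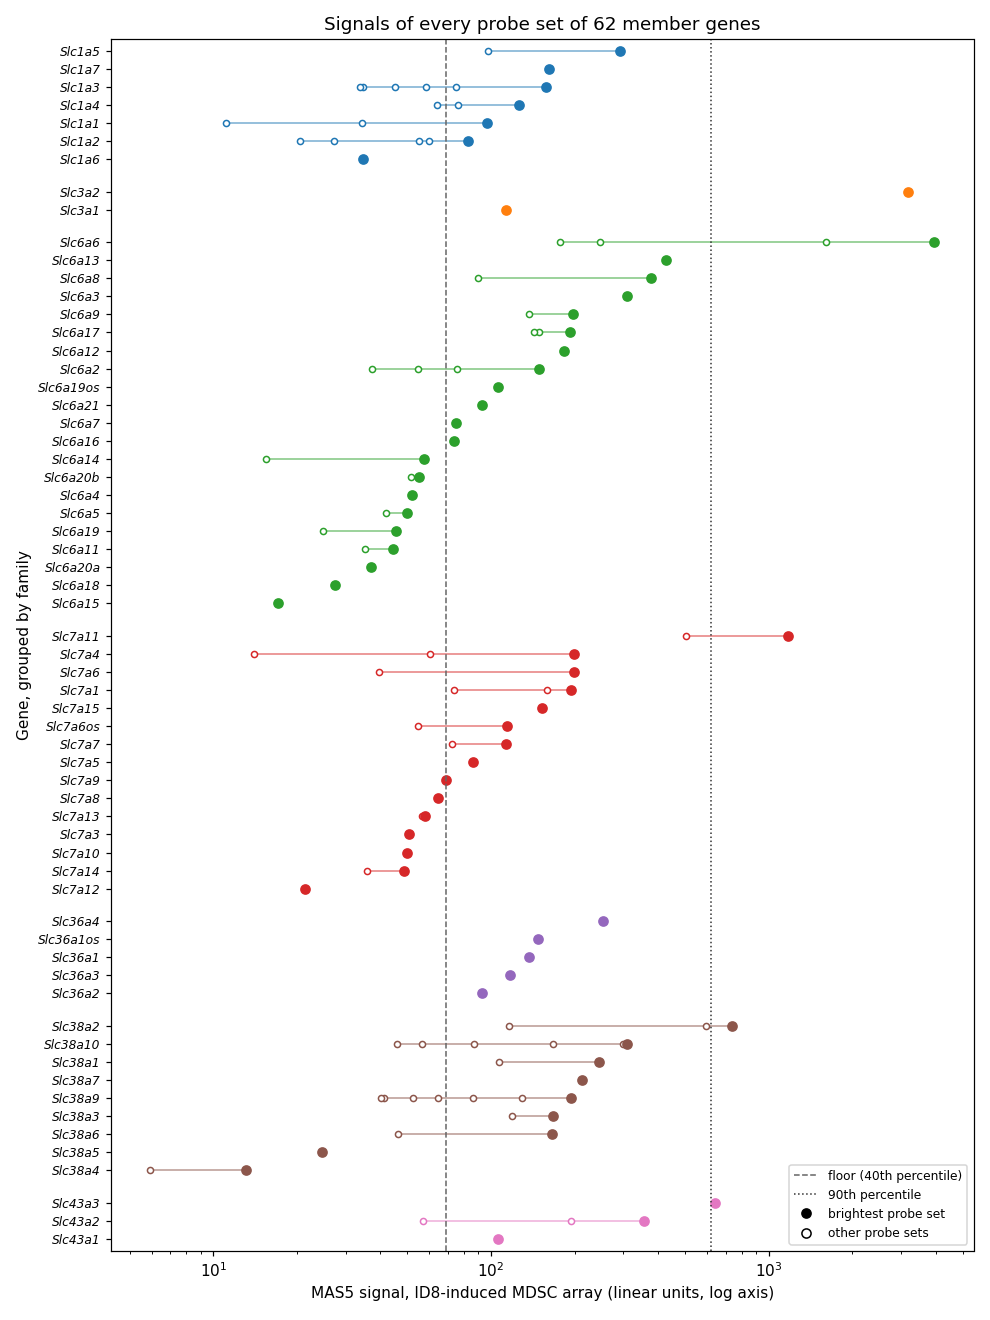
MAS5 signal of every probe set of the 62 member genes on the ID8-induced array (horizontal log axis), grouped by family, with filled circles for the brightest probe set of a gene and open circles for its others. The dashed line is the floor (68.77) and the dotted line the 90th percentile (619.81); 5 genes reach the dotted line, and 12 genes have probe sets on both sides of the floor.

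The probe sets of 1 gene are the only check within the array. For the 31 members with several probe sets the brightest was a median of 2.63 times the dimmest (range 1.03 to 22.2), against 3.01 for all such genes. All probe sets lay above the floor in 11 of these 31, all lay below it in 8, and in 12 they lay on both sides. This spread also reflects the probes and does not stand for the error between cultures. The brightest probe set also favours genes with many: among genes with 1 probe set, 21 of 31 members (67.7%) and 57.7% of all named genes passed the floor, and among genes with 2 or 3, 17 of 25 members (68.0%) and 82.7%. With 4 or more, 6 of 6 members and 94.5% of all named genes passed.

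The label was checked on myeloid markers first. All 8 measured of 12 listed lay at or above the 90th percentile (all named genes, 14.8%), with Itgam (CD11b) at 2375 and S100a9 at 24857. Ptprc, 1 of the 8, read 8148 and 545.87 on its 2 probe sets, the second below that level. No probe set was named for Ly6g, Ly6c1 or Ly6c2, the antigens of Gr1, alone, so that side of the phenotype was not analysed here. Of 7 epithelial and mesothelial markers that ID8 cells could bring, 4 passed the floor and 0 reached the 90th percentile. Of all named genes 71.3% and 14.8% did. Epcam read 158.91 and Krt8 106.89, with 58.32 and 46.62 on their dimmest probe sets. Krt18 and Msln passed at 94.87 and 87.77, each on 1 probe set. Below the floor, Wt1, Krt19 and Cdh1 read 52.31, 46.03 and 21.57. Among measured markers of other blood cells, 4 of 4 for megakaryocytes and platelets passed the floor (all named genes, 71.3%). So did 3 of 5 for mast cells and basophils and 2 of 3 for B and T lymphocytes. None of these reached the 90th percentile (all named genes, 14.8%). Of 2 erythroid markers 1 passed the floor, and it also reached the 90th percentile. In a bulk culture, fewer cells of a type and less RNA per cell cannot be told apart.

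The heavy chain family has the members Slc3a2 and Slc3a1. Slc3a2, the heavy chain of CD98 that also supports integrin signalling, read 3181 on its 1 probe set, at percentile 98.2. Slc3a1 (rBAT), the heavy chain of the kidney and gut cystine carrier, read 113.65 at percentile 58.3, also on 1 probe set. Both passed the floor, as did 71.3% of all named genes.

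In the light chain branch of the Slc7 family, 6 of 10 genes passed the floor (all named genes, 71.3%). Of the 10, 1 reached the 90th percentile (all named genes, 14.8%). That gene was Slc7a11 (xCT), which brings in cystine in exchange for glutamate and so feeds glutathione synthesis. Its 2 probe sets read 1175 and 503.96, at percentiles 94.5 and 88.0, so both were well above the floor. Slc7a6, which exchanges cationic for neutral amino acids, read 199.46 on one probe set and 39.56 on the other, on opposite sides of the floor. Slc7a7, its close relative and a known carrier of macrophages, read 113.09 and 72.67, both above it. Slc7a15 read 152.44, and Slc7a5 (LAT1), the main importer of leucine and other large neutral amino acids in activated lymphocytes, read 86.01 at percentile 48.5 on its 1 probe set.

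Light chains near or below the floor were mostly known from kidney, gut, brain or fat. Slc7a9, the partner of Slc3a1 in cystine reabsorption, read 68.82, just at the floor, and Slc7a8 (LAT2) 64.27, just under it. The others were Slc7a13 (57.91), Slc7a10 (49.87), a carrier of small neutral amino acids, and Slc7a12 (21.34). On the array as a whole, kidney and gut epithelial markers passed the floor in 1 of 5 cases (all named genes, 71.3%). That marker, Cdh16 of kidney, read 217.39 at percentile 75.4, and Vil1 of gut and kidney brush border read 34.62. The part of such cells in these signals was not tested.

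Cationic carriers form the other branch of the Slc7 family and need no heavy chain. Slc7a1 (CAT1), the general importer of arginine and lysine, read 193.73, 158.71 and 73.56 on its 3 probe sets, all above the floor. Slc7a4, a relative with no settled substrate, read 199.82, 60.37 and 13.96, and only the first passed. Slc7a3 read 50.53. Slc7a14, a lysosomal relative, read 48.48 and 35.64. With Slc7a6os, which read 114.35 and 54.6, the Slc7a symbols above the floor numbered 9 of 15. Against the background this share turned with the floor: 14 of 15 (93.3%) passed at the 20th percentile, against 87.5% of all named genes, and 5 of 15 (33.3%) at the 60th, against 51.6%.

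Carriers of taurine, GABA, betaine and creatine form one branch of the Slc6 family. Slc6a6 (TauT) imports taurine, which is plentiful in neutrophils and takes up the hypochlorous acid they make. Its 4 probe sets read 3947, 1604, 246.52 and 177.51, at percentiles 98.7, 96.1, 77.9 and 70.9. They disagreed by 22.2 times, the widest ratio among the members, yet all 4 lay above the floor. Slc6a8, the creatine carrier, read 378.24 and 89.96. Slc6a13 (GAT2), which carries GABA, betaine and taurine, read 427.48 at percentile 86.2, and its neighbour on the chromosome Slc6a12 (BGT1), the betaine carrier, read 182.8. Slc6a11, a GABA carrier of glia, lay below the floor at 44.27. In this group 4 of 5 genes passed the floor, against 71.3% of all named genes.

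Carriers of neurotransmitters gave mixed signals. Slc6a3, which returns dopamine to neurons, read 308.25 at percentile 81.7 on its 1 probe set. Slc6a2, which does the same for noradrenaline, read 148.44, 75.59, 54.72 and 37.38, on both sides of the floor. Slc6a4, the serotonin carrier of neurons, platelets and mast cells, read 52.02 and lay below it. Of 8 neuron and glia markers, 4 passed the floor (all named genes, 71.3%), and each of these 4 also had a probe set below it. Snap25 and Syt1, proteins of synaptic release, read 25.83 and 44.15, while Gad2, which makes GABA, read 536.52 and 47.41 on its 2 probe sets. The part of other cells or of cross-hybridisation in the Slc6a3 signal was not tested.

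Glycine and proline carriers passed in 2 of 3 cases (all named genes, 71.3%). Slc6a9 (GlyT1), the glycine importer that also serves erythroid cells, read 197.68 and 136.58. The erythroid marker Alas2 read 1693 and Hba-a1 51.32, and their part in it was not tested. Slc6a7, a proline carrier, read 74.9, close to the floor, and Slc6a5 (GlyT2) read 49.72 below it.

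Neutral amino acid carriers of the Slc6 family lay mostly below the floor, with 3 of 9 above it. Slc6a17, a vesicular carrier, read 192.5, 149.48 and 142.85, the 3 probe sets lying close together. Slc6a21 and Slc6a16 read 93.12 and 73.69. Those below were Slc6a14 (57.56), Slc6a20b (54.89), Slc6a19 (45.42), Slc6a20a (36.93), Slc6a18 (27.33) and Slc6a15 (17.16). Slc6a18 and Slc6a19 are known as carriers of the kidney and gut brush border. Slc6a19os, a non-coding gene beside Slc6a19, read 106.23. The Slc6a family thus had 12 of 21 symbols above the floor (57.1%), against the background of 71.3%, and a median percentile of 43.4. With the floor at the 20th percentile 18 of 21 passed (85.7%, against 87.5%), and with it at the 60th, 8 of 21 (38.1%, against 51.6%).

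**Figure D2:**
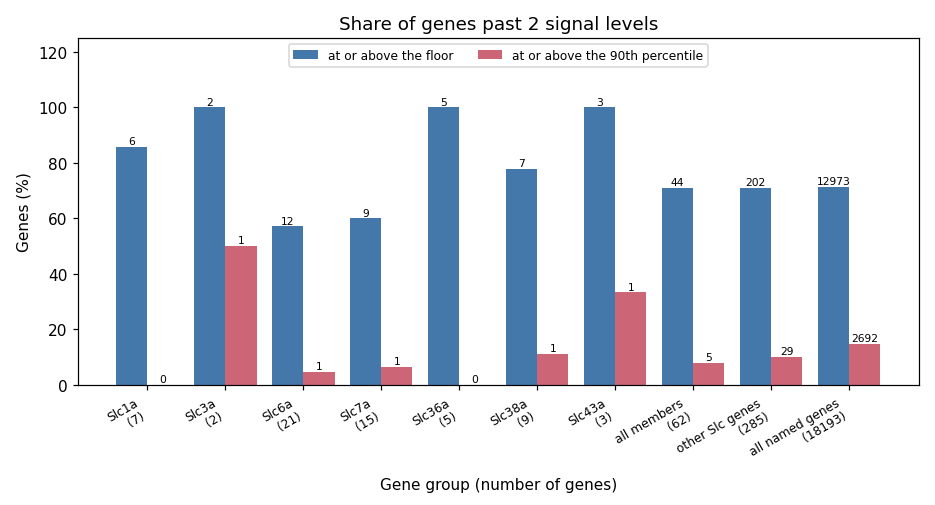
Share of genes (%) at or above the floor (blue) and at or above the 90th percentile (red) for each family, all members, other Slc genes and all named genes, with the number of genes in brackets and the count over each bar. The share above the floor is 57.1% for Slc6a (12 of 21 genes), and 9 of 15 genes pass for Slc7a, both under the 71.3% of all named genes at this floor (at the 20th percentile Slc7a, with 93.3%, is above the 87.5% of all named genes), while families of 2 to 5 genes have all members above it.

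Glutamate carriers of the Slc1 family passed in 4 of 5 cases (all named genes, 71.3%), and none reached the 90th percentile. They clear glutamate from synapses in the brain. Slc1a3 (GLAST) read 158.44 and 74.8 on 2 of its 6 probe sets, and the other 4 read 58.14, 44.99, 34.53 and 33.85, below the floor. Slc1a1 (EAAC1) read 96.49, 34.41 and 11.15. Slc1a2 (GLT-1) read 82.32 on the brightest of 5, the others 59.68, 55.25, 27.29 and 20.52. For these 3 genes most probe sets lay below the floor, so their count rests on the choice of the brightest. Slc1a7 read 161.35 and Slc1a6 34.51, each on 1 probe set.

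Neutral exchangers of the same family both passed. Slc1a5 (ASCT2), a glutamine importer of dividing cells, read 292.43 and 97.79, at percentiles 80.8 and 53.1. Slc1a4 (ASCT1), which exchanges serine, alanine and cysteine, read 126.31, 75.8 and 63.9, the last below the floor. The Slc1a family had 6 of 7 genes above the floor (all named genes, 71.3%). It had 3 of 7 when the mean over a gene's probe sets was used. The 71.3% is for the brightest probe set, and no share of all named genes was computed by the mean.

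Glutamine and neutral amino acid carriers of the Slc38 family included 7 of 9 genes above the floor (all named genes, 71.3%). Slc38a2 (SNAT2), the system A carrier whose transcript is known to rise when amino acids are scarce, read 735.35, 596.73 and 116.27, at percentiles 91.5, 89.6 and 58.9. Slc38a1 (SNAT1), the other broad system A carrier, read 245.54 and 106.44. Slc38a4, a system A carrier of liver, read 13.13 and 5.94, both near the bottom of the array. These 3 genes lie near each other on chromosome 15, and their signals ran from percentile 91.5 to 2.99.

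System N and lysosomal members of Slc38 differed as well. Slc38a3 (SNAT3), a glutamine carrier of liver and kidney, read 167.36 and 119.46, and its relative Slc38a5 (SNAT5) 24.53. Slc38a7, which lets glutamine out of lysosomes, read 213.1. Slc38a9, the lysosomal arginine sensor that signals to mTORC1, read 194.78, 129.65 and 85.99 on the probe sets above the floor and 64.34, 52.33, 41.05 and 40.07 on those below it. Slc38a10 read 309.62, 305.8, 298.22, 167.07 and 86.76 above the floor, and 56.43 and 46.05 below. Slc38a6 read 166.15 and 46.07. The brightest probe set of Slc38a9 carries the suffix that marks probes able to bind other transcripts. With probe sets of no suffix letter, Slc38a9 read 129.65 and Slc38a10 167.07.

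Proton-coupled carriers of the Slc36 family all passed the floor (all named genes, 71.3%), each on 1 probe set, and none reached the 90th percentile. Slc36a4 read 253.12 at percentile 78.4. Slc36a1 (PAT1), which exports small amino acids from lysosomes, read 137.45. Slc36a3, known from testis, read 117.14, and Slc36a2 92.85. Slc36a1os, a non-coding gene between Slc36a2 and Slc36a1, read 148.27. With the floor at the 60th percentile, 3 of these 5 symbols passed, against 51.6% of all named genes.

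Slc43 carriers were above the floor in 3 of 3 cases (all named genes, 71.3%). Slc43a3, which carries purine bases and not amino acids although it bears the family name, read 639.59 at percentile 90.3. Slc43a2 (LAT4), a carrier of branched chain amino acids, phenylalanine and methionine, read 356.89, 193.64 and 56.99, the last below the floor. Slc43a1 (LAT3), of like substrates, read 106.12.

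Genes that act on the imported amino acids were then read from lists, again by the brightest probe set. The amino acid stress list, centred on ATF4, had 21 of 21 measured genes above the floor, of which 11 reached the 90th percentile (all named genes, 71.3% and 14.8%). On the dimmest probe set of each gene 16 of the 21 passed. The shares of all named genes are for the brightest probe set, and none was computed for the dimmest, for this or any other list. Nor are they matched for probe sets per gene, and the 21 genes have 51. Of all named genes with 2 or 3 probe sets 82.7% passed the floor and 18.3% reached the 90th percentile. With 4 or more, 94.5% and 31.0% did, and with 1, 57.7% and 8.70%. Atf4 read 3434, with 61.35 on the dimmest of its 3 probe sets, just under the floor. Cebpb and Ddit4, the strongest of the list, read 10975 and 7347. Ddit3 (CHOP) read 1910, Sesn2 (a leucine sensor) 1205 and Asns (asparagine synthetase) 835.83. Others lay below the 90th percentile, such as Trib3 (337.01), Mthfd2 (270.42), Psat1 (186.79) and Atf5 (95.66). Eif2ak4 read 117.31 and Chac1, which breaks down glutathione, 170.53. The glutathione and cysteine list had 11 of 13 measured genes above the floor (10 by the dimmest probe set), and 6 reached the 90th percentile. Gclm and Gclc, the subunits of the rate-limiting enzyme of glutathione synthesis, read 1307 and 445.4, Gsr (glutathione reductase) 5786 and Nfe2l2 3435. Cth and Cdo1, which make and oxidise cysteine, lay below the floor at 29.05 and 39.89.

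Sensing of amino acids by mTORC1 was represented by 26 of 26 measured genes above the floor, 13 of them at the 90th percentile. Of all named genes 71.3% passed the floor and 14.8% reached the 90th percentile. These shares are for the brightest probe set and are not matched for probe sets per gene, and the 26 genes have 62. For 9 of the 26 a probe set also lay below the floor, so that 17 passed by the dimmest. Among the 13, Lamtor1 (the lysosomal anchor) read 1852, Rragc (a Rag GTPase) 1650 and Castor1, an arginine sensor, 642.28. Flcn, which acts on the Rag GTPases, read 1349, but 11.14 on the dimmest of its 3 probe sets. Glutamine and glutamate enzymes passed in 10 of 11 cases, and in 5 by the dimmest probe set. Glud1 read 550.7 and Glul (glutamine synthetase) 232.36, while Got2 read 658.5, but 18.0 on the dimmest of its 4 probe sets.

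Enzymes for branched chain amino acids and tryptophan gave no signal at or above the 90th percentile. Of all named genes 71.3% passed the floor and 14.8% reached the 90th percentile. Of 10 branched chain genes 7 (70%) passed the floor by the brightest probe set and 0 reached the 90th percentile. By the dimmest 5 passed, and no share of all named genes by the dimmest is given, here or below. Bckdha read 296.6, Bcat2 88.05 and Bcat1, the cytosolic transaminase, 54.16. Of 11 tryptophan and kynurenine genes 5 passed (3 by the dimmest) and 0 reached it. Among the 5, Wars, the tryptophan tRNA synthetase, read 360.71. Haao and Ido2 read 227.11 and 96.82, each on 1 probe set. Afmid and Ahr read 92.12 and 83.93, with 41.11 and 47.77 on their dimmest probe sets. Ido1, Kmo and Il4i1, which consume tryptophan or kynurenine, read 59.33, 59.99 and 37.07.

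**Figure D3:**
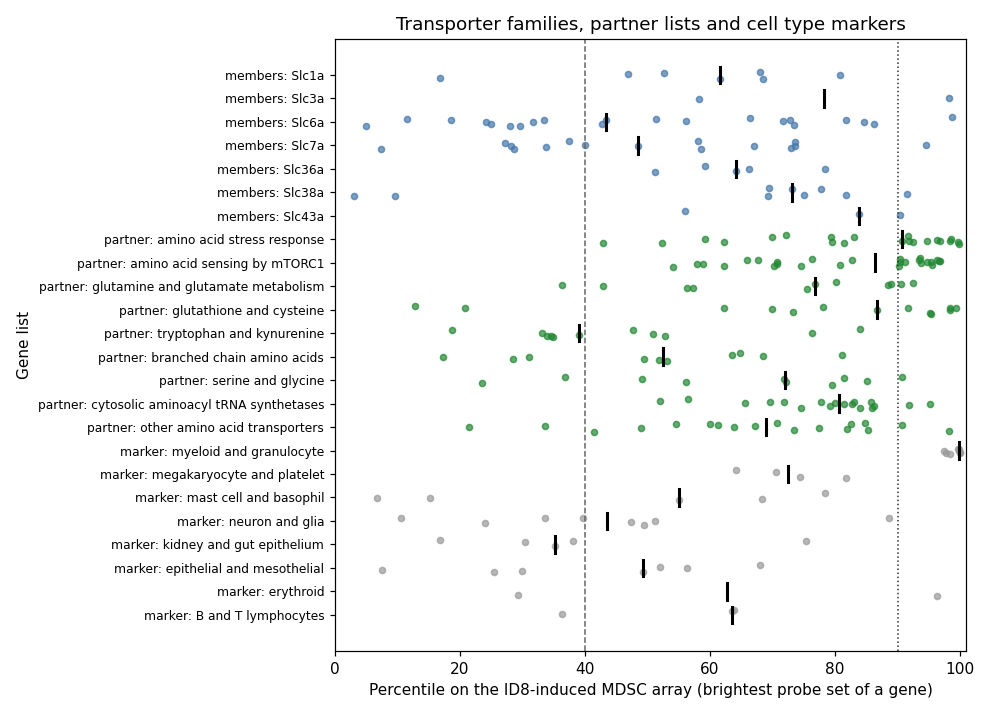
Percentile on the ID8-induced array of each gene's brightest probe set (horizontal axis), for the 7 transporter families (blue), lists of genes that act on amino acids (green) and cell type markers (grey), with a black bar at the median of each list. The dashed line is the 40th and the dotted line the 90th percentile; the median is 90.7 for the amino acid stress list, and it is 43.4 for Slc6a and 48.5 for Slc7a.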

How the data were processed

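RNA of each sample was hybridised to 1 array. Each deposited value is a linear signal intensity of 1 probe set, made with MAS5 per the submitters' processing notes, whose version and scaling target are not given in the sources used. The ID8-induced column was used as deposited. Names of probe sets came from GEO's platform annotation, which gives 1 symbol to 34945, several to 932 and none to 9160. All 62 member symbols matched the RefSeq gene table (GRCm38.p6) unchanged. A gene was given by its brightest probe set, and the floor was the 40th percentile. For the mean log2 signal over probe sets, values under 0.01 were set to it. With 1 array, no test or error was possible, and the number of arrays limits the precision. Members, lists and levels were chosen with earlier results of these data known. Every member is named, with each probe set for genes at the 90th percentile, genes on both sides of the floor and families of at most 5. From each list came up to 6 strong genes and up to 3 below the floor. Some list genes were instead chosen for their role after their values were seen. Alternatives were other floors, the mean or dimmest probe set, probe sets without a suffix letter or with several symbols, and leaving out opposite-strand genes, the last chosen after seeing the data. Selection and motif search were tested on simulated data. Python 3.11.15, numpy 2.4.6, pandas 2.3.3 and matplotlib 3.10.9 were used.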

Additional observations from a re-analysis of the deposited data

Results flagged for a closer look

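The bone marrow control column holds signals that no result here uses. Its highest, 26083.92, stands on the first row of the table, and its values fall along the probe sets in 2 alternating sequences, with 6.89% of steps between rows being rises against 49.9% in the ID8-induced column. Members have no usable value in it.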

How the results depend on the processing

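No paired analysis was possible because each group holds 1 array and no comparison was made. The count of members above the floor (44) stayed within 1.5 times under each of the 7 alternatives run, the lowest being 30 (floor at the 60th percentile) and the highest 55 (floor at the 20th). It was 32 on the dimmest probe set of each gene. The mean and the dimmest leave the 31 members with 1 probe set unchanged. Only 1 several-symbol probe set names a member, and 3 opposite-strand genes could be left out. These alternatives could therefore move the count only in part, and the several-symbol and opposite-strand ones could not take it past 1.5 times. Nor could the floor at the 20th percentile, since a count of all 62 genes would still be within 1.5 times of 44. Family counts moved further in some cases. With the floor at the 60th percentile 1 of 2 Slc3a, 5 of 15 Slc7a and 3 of 5 Slc36a symbols passed (all named genes, 51.6%), and with it at the 20th 14 of 15 Slc7a symbols (all named genes, 87.5%). With the mean over probe sets 3 Slc1a genes passed, and no share of all named genes by the mean is given for comparison. Probe sets without a suffix letter left 1 Slc3a gene, since Slc3a2 has no such probe set; Slc7a7 and Slc6a18 have none either. Members at the 90th percentile numbered 5, and 2 on the dimmest probe set. These 2, Slc3a2 and Slc43a3, have 1 probe set each, so this alternative could not move them. Slc6a6, Slc7a11 and Slc38a2, which have several, read 177.51, 503.96 and 116.27 on their dimmest, all below that level. No share of all named genes on the dimmest probe set is given for comparison. With the mean over probe sets, 17 of 31 signals moved by over 1.5 times, Slc6a6 to 725, Slc7a11 to 770 and Slc38a2 to 371, and Slc1a1, Slc1a2, Slc1a3 and Slc7a4 fell below the floor. Without suffixed probe sets 2 of 30 moved, Slc38a10 to 167.07 and Slc38a9 to 129.65. The others of the 30 have a brightest probe set without a suffix letter, so this alternative could not move them.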

Other observations

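Amino acid transporters outside the 7 families passed the floor in 16 of 18 measured cases (all named genes, 71.3%). Of the 18, 2 reached the 90th percentile (all named genes, 14.8%). By the dimmest probe set 13 passed. The shares of all named genes are for the brightest probe set and not matched for probe sets per gene. No such share is given for the dimmest, here or below. Slc15a3, a lysosomal carrier of histidine and small peptides, read 3151 at percentile 98.2, and its relative Slc15a4 382.02 and 19.21 on its 2 probe sets. Slc25a12, the mitochondrial aspartate and glutamate carrier, read 674.85, with 49.74 on the dimmest of 3 probe sets, and Slc25a13, which does the same work in liver, 71.46. Ctns, the lysosomal cystine exporter, read 119.64. The vesicular glutamate carriers Slc17a7 and Slc17a6 lay below the floor at 57.78 and 40.63. Cytosolic tRNA synthetases, which load amino acids onto tRNA, passed it in 18 of 18 measured cases (16 by the dimmest probe set), with Sars at 1317 and Nars at 762.36. Of 10 serine and glycine genes 8 passed (6 by the dimmest), with Phgdh, the first enzyme of serine synthesis, at 675.3, while Psph and Gldc lay below at 63.1 and 43.63.

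Members often lie side by side. In gene order 21 of the 62 had another member within 5 genes, which gave 13 neighbouring pairs. Both genes passed the floor in 8 pairs, both lay below it in 2 (Slc6a20b with Slc6a20a, and Slc6a18 with Slc6a19), and the floor split 3 (Slc6a3 with Slc6a18, Slc6a19 with Slc6a19os, and Slc38a2 with Slc38a4). Of all named genes 71.3% passed the floor, and no share was computed for pairs of other genes. Some genes stand in more than 1 pair, and the 3 opposite-strand genes are among them. This is a description of 1 array, and its relation to shared control was not tested.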
